A study of Mus musculus with 2 samples.

Results

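The genes described here are 37 mitosis genes of the mouse, named as a fixed list of cyclins, mitotic kinases, checkpoint proteins, kinesins and other factors that cells make to divide. All 37 were found in both deposited tables, which hold 18309 genes between them (16955 and 17217). Their levels were compared between classes of epithelial cells and fibroblasts, and between the conditions, in co-cultures that joined fibroblasts and crypts, the epithelial pits in which gut stem cells reside. Small intestine of C57BL6 mice aged 10 weeks was the source, and the medium was one for organoids.

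The conditions are named for Ptger4, the gene of the prostaglandin E2 receptor EP4. Ptger4-ON co-cultures had the vehicle DMSO alone and formed spheroids. Ptger4-OFF co-cultures had ONO-AE3-208, an EP4 inhibitor in DMSO, at a final 10 µM given each second day, and formed budding organoids. Neither condition carries a genetic change in the labels. Each condition was 1 Drop-seq library from a pool of 6 cultures. In Drop-seq each cell is caught in a droplet with a barcoded bead that captures its mRNA, and each unique molecular identifier (UMI) stands for 1 captured molecule. A single library per condition leaves no replicate error, so the conditions are compared without tests. All intervals are 95% intervals of counting error and leave out the variation between cells, cultures and mice.

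Entry into mitosis is driven by the kinase Cdk1 bound to A-type and B-type cyclins, and exit by the anaphase-promoting complex, which marks those cyclins for destruction. Between these steps chromosomes condense, attach through their kinetochores to the spindle and are pulled apart, and the cell is then cut apart at the cleavage furrow. Most of the mRNAs rise late in the cell cycle and are lost after division, so that they mark cells that are about to divide or are dividing. In the small intestine, division is concentrated in the crypt, in Lgr5 stem cells and their early progeny, and ceases as cells mature. Clu and Ly6a (Sca-1) mark a fetal-like or regenerative epithelial state that spheroids are known for.

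Many genes of this kind share a promoter design. The letters TTTGAA form the core of the CHR element, which with CCAAT boxes, the binding sites of NF-Y, is known to confer expression late in the cell cycle. RefSeq promoter windows (GRCm38.p6, from 250 bases before to 50 bases after the annotated start, 300 bases in all) were matched for 31 of the 37 genes. The 6 promoters below belong to the members with the most epithelial UMIs among those that hold TTTGAA. They were thus chosen for holding the motif, which 24 of the 31 matched promoters held. TTTGAA and CCAAT on either strand (TTCAAA and ATTGG in reverse) are in capitals. The windows are chr11:99024140-99024439 (minus strand) for Top2a, chr7:135716330-135716629 (minus strand) for Mki67, chr2:164769679-164769978 (plus strand) for Ube2c, chr1:189688037-189688336 (minus strand) for Cenpf, chr11:40733388-40733687 (minus strand) for Hmmr and chr7:80294201-80294500 (plus strand) for Prc1.
Top2a: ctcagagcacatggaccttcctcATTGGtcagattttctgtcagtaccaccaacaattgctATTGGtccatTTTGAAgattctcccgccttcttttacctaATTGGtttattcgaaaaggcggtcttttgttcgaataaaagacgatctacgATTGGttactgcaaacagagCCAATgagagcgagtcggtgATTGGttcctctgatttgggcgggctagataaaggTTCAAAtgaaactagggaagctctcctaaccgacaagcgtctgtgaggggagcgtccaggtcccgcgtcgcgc
Mki67: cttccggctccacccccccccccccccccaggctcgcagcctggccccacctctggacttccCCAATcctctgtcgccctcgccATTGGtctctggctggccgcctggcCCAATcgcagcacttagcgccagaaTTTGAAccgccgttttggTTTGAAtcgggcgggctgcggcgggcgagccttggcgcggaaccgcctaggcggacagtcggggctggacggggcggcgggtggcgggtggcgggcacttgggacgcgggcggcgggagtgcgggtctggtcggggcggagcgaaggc
Ube2c: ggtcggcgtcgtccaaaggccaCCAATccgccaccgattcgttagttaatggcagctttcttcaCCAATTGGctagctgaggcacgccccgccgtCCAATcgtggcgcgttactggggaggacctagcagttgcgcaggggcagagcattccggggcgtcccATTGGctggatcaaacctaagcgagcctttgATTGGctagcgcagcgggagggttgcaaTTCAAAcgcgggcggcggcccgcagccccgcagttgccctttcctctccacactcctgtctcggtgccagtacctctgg
Cenpf: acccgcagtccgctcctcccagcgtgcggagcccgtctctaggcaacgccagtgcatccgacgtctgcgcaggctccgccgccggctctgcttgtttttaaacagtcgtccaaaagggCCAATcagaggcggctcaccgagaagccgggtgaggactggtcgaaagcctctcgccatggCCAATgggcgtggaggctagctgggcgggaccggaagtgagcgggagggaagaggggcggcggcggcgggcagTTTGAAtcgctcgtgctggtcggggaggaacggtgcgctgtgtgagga
Hmmr: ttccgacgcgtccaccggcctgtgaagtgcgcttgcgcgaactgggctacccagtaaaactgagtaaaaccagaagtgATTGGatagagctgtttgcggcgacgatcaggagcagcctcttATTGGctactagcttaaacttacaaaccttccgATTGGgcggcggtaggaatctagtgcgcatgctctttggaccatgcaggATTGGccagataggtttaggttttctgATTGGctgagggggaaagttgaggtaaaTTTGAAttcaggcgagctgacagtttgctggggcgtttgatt
Prc1: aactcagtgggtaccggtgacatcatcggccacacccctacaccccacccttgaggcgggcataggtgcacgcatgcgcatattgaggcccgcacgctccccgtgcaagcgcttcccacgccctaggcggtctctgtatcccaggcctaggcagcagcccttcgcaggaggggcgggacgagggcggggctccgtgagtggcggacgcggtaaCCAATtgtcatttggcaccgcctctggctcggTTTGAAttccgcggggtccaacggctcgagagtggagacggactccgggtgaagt

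TTTGAA was present in 24 of the 31 matched promoters (77.4%). Of 8595 promoters of genes measured in the epithelial cells, 11.8% held it, and of all 27025 promoters 18.1%. In the last 100 bases of the window, around the start site, 21 of 31 promoters held it (67.7%), against 3.08% of the measured genes. CCAAT was in 24 of 31 (77.4%) against 39.2%, and both motifs were in 20 of 31 (64.5%) against 5.07%. Cenpe, Birc5, Nusap1, Bub1, Tacc3, Ccnb1 and Cks2 were the members without TTTGAA in the window. Among DNA replication genes, which act earlier in the cycle, TTTGAA was in 3 of 31 promoters (9.68%) and CCAAT in 19 (61.3%). Among other mitosis genes, TTTGAA was in 27 of 41 (65.9%). The motifs are matches of letters, not measured sites, and no binding was measured here.

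The libraries held 908 and 1599 barcodes with 7408303 and 9490205 UMIs (Ptger4-ON, Ptger4-OFF, in this order throughout), a median of 4366 and 4161 per barcode. After filters 875 and 1559 cells remained. Fibroblasts were the cells with more UMIs of the collagen genes Col1a1, Col1a2 and Col3a1 than of the epithelial genes Epcam, Krt8 and Krt18 (274 and 359 cells), and epithelial cells the reverse (586 and 1199). Epithelial cells were divided, in this order, into differentiated cells by markers of mature lineages (120 and 183), Clu/Ly6a cells (107 and 48), Lgr5 cells with at least 1 Lgr5 UMI (130 and 381) and other epithelial cells (229 and 587). No gate uses a mitosis gene. The epithelial gate genes summed to 7604 and 6070 counts per 1000000 UMIs (CPM) in epithelial cells and to 71.8 and 124 CPM in fibroblasts, and the collagens to 16011 and 14660 CPM in fibroblasts and 28.8 and 34.6 CPM in epithelial cells. Leukocyte markers summed to at most 24.0 CPM in any class, endothelial to at most 8.52 and enteric glial to at most 3.57, and smooth muscle and pericyte markers reached 254 and 264 CPM in fibroblasts. Ptger4-ON had 61 and Ptger4-OFF 17 pairs of barcodes 1 base apart, which may be split cells, and 16 and 6 barcodes had over 50000 UMIs. The libraries shared 1 barcode.

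As a sum, the mitosis genes were highest in Lgr5 cells in both libraries and lower in other epithelial cells. They were lower again in Clu/Ly6a and differentiated cells, and lowest in fibroblasts. Summed over the 37 genes, Lgr5 cells had 8714 CPM (8590 to 8840) in Ptger4-ON and 7481 CPM (7389 to 7574) in Ptger4-OFF. Other epithelial cells had 6896 and 6382 CPM, Clu/Ly6a cells 3748 and 3090 CPM, differentiated cells 3452 and 2422 CPM, and fibroblasts 1341 and 1153 CPM. The same order held in both libraries. Lgr5 cells exceeded Clu/Ly6a cells 2.33-fold (2.25 to 2.40) and 2.42-fold (2.28 to 2.57), differentiated cells 2.52-fold and 3.09-fold, other epithelial cells 1.26-fold and 1.17-fold, and fibroblasts 6.50-fold and 6.49-fold. These comparisons share the Lgr5 cells.

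**Figure D1:**
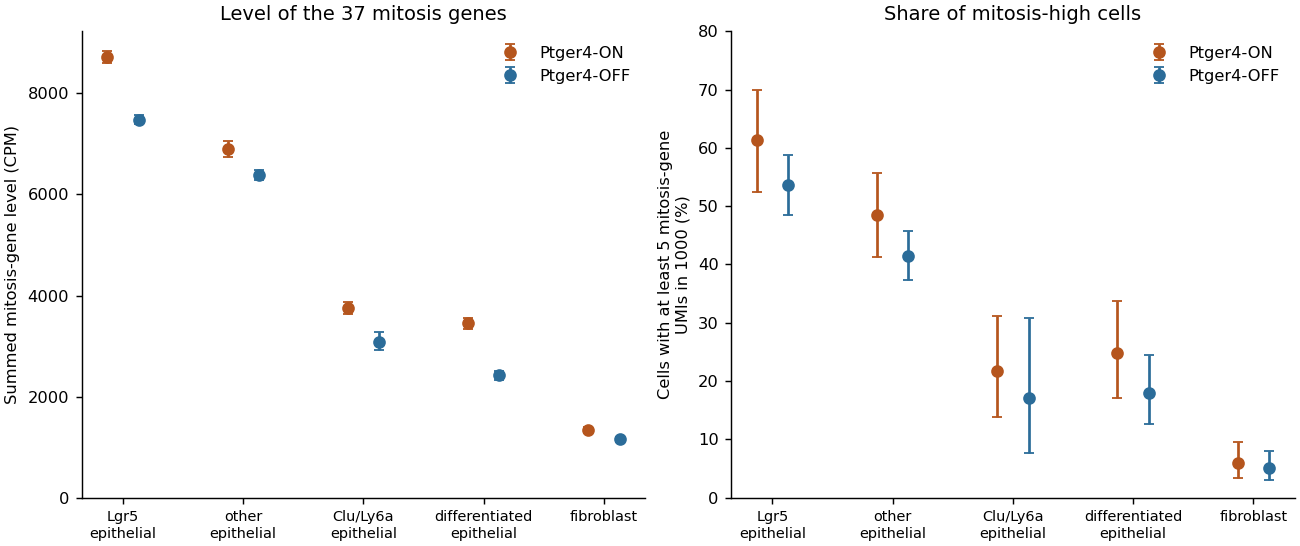
Left, summed level of the 37 mitosis genes (CPM) by cell class and library; right, share of cells (%) with at least 5 mitosis-gene UMIs among 1000. Points are single libraries and bars 95% counting intervals. Lgr5 cells are highest on both measures (8714 and 7481 CPM) and fibroblasts lowest (1341 and 1153 CPM).

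To compare cells at 1 depth, each cell was thinned to 1000 UMIs, shallower cells were left out, and a cell with at least 5 mitosis-gene UMIs was called mitosis-high. This is a range of a score, not a cell type. Among Lgr5 cells, 78 of 127 (61.4%, 52.4% to 69.9%) and 203 of 378 (53.7%, 48.5% to 58.8%) were mitosis-high. In other epithelial cells the shares were 48.5% and 41.5%, in Clu/Ly6a cells 21.6% (21 of 97) and 17.0% (8 of 47), and in differentiated cells 24.8% (28 of 113) and 17.98% (32 of 178). Fibroblasts had 15 of 252 (5.95%) and 18 of 348 (5.17%). Without thinning the same call gave 90.8% and 76.6% of Lgr5 cells and 14.2% and 15.9% of fibroblasts. Mitosis-high epithelial cells were also deeper before thinning, with a median of 7049 and 5518 UMIs against 4762 and 3829 in the rest.

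The per-cell distribution was broad, with no gap at the value that defines mitosis-high cells. Among Lgr5 cells 91.3% and 85.7% had at least 1 mitosis-gene UMI in 1000, and 36.2% and 30.95% had at least 10. Clu/Ly6a cells had at least 1 in 60.8% and 57.4%, and at least 10 in 13.4% and 10.6%. Of fibroblasts, 67.5% and 60.1% had none. Epithelial cells at the threshold or 1 UMI below it numbered 52 of 533 and 106 of 1152.

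**Figure D2:**
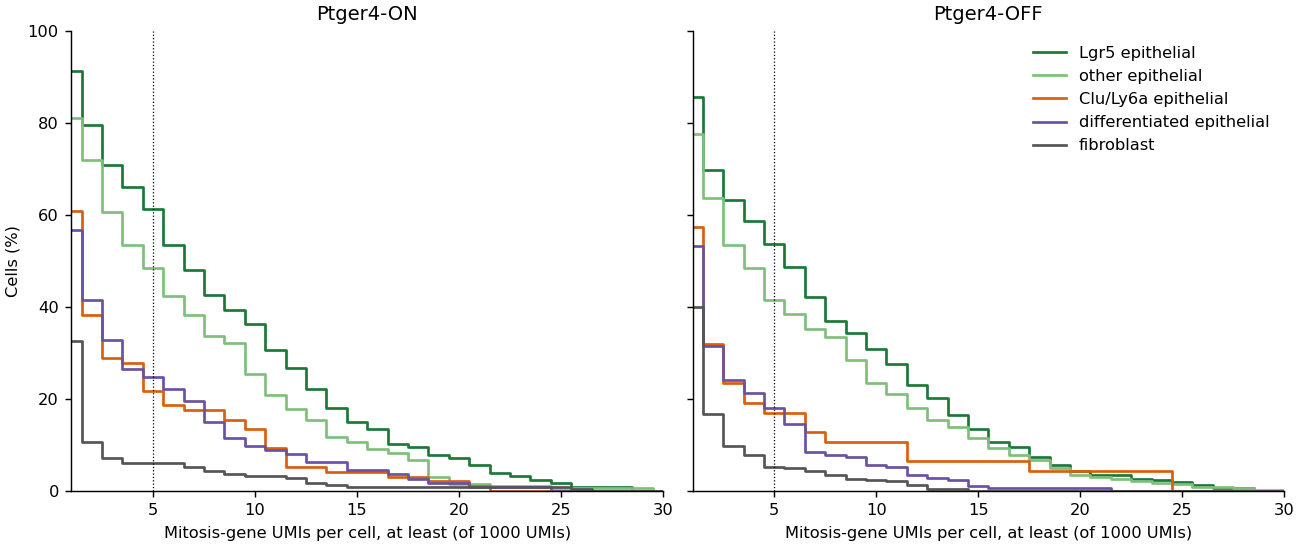
Share of cells (%, vertical axis) with at least the number of mitosis-gene UMIs on the horizontal axis, after thinning each cell to 1000 UMIs, for 5 classes in Ptger4-ON (left) and Ptger4-OFF (right). The dotted line marks 5 UMIs, which 61.4% and 53.7% of Lgr5 cells and 5.95% and 5.17% of fibroblasts reach.

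The 37 genes went together in the same cells. For each gene, cells were called high from the other 36 members alone, which took between 37.7% and 41.7% of epithelial cells. Of a member's thinned UMIs, a median of 84.4% and 85.7% over the genes lay in those cells. Nusap1, a microtubule-binding spindle protein, had 86.4% and 94.4% of its UMIs there, and Prc1, which bundles the microtubules of the central spindle, 87.8% and 91.7%. The lowest was Ccnb2 (cyclin B2), with 61.1% (50.3% to 71.2%) and 63.8% (56.3% to 70.9%). Smc4, a condensin subunit, had 66.3% and 73.4%. These are shares within 1 library each, from cells that share free RNA and depth.

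Among the genes of mitotic entry, Cdk1 had 202 and 204 CPM in Lgr5 cells, 101 and 93.8 in Clu/Ly6a cells, 113 and 59.8 in differentiated cells and 49.97 and 44.2 in fibroblasts. Its partner Ccnb1 (cyclin B1) had 121 and 105 CPM in Lgr5 cells and 47.9 and 53.6 in Clu/Ly6a cells. Ccna2 (cyclin A2), which acts from S phase on, had 209 and 179 CPM in Lgr5 cells and 80.7 and 61.6 in Clu/Ly6a cells. All 3 were thus lower in Clu/Ly6a than in Lgr5 cells in both libraries. Cdc25c, the phosphatase that activates Cdk1, had few UMIs, with 66 and 112 in Lgr5 cells and 22 and 4 in Clu/Ly6a cells. Cks2, the small Cdk-binding subunit, had 52.4 and 34.8 CPM in Lgr5 cells and 26.6 and 21.4 CPM in Clu/Ly6a cells.

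Among the mitotic kinases, Aurka (centrosomes and spindle poles) had 90.7 and 69.9 CPM in Lgr5 cells against 30.2 and 24.1 CPM in Clu/Ly6a cells. Aurkb and Birc5 (survivin), both of the chromosomal passenger complex, had 113 and 111 CPM and 274 and 251 CPM in Lgr5 cells, and 55.9 and 48.2 CPM and 132 and 113 CPM in Clu/Ly6a cells. The gap between the classes was larger for Aurka (3.01-fold and 2.90-fold) than for Aurkb (2.02-fold and 2.31-fold), and the difference between these folds was not tested. Plk1, the polo-like kinase of spindle assembly and mitotic exit, had 85.1 and 74.6 CPM in Lgr5 cells, 40.8 and 18.8 CPM in Clu/Ly6a cells (46 and 7 UMIs) and 8.62 and 10.4 CPM in fibroblasts. Of the spindle checkpoint and its target, Bub1 had 113 and 125 CPM in Lgr5 cells and 63.9 and 50.9 in Clu/Ly6a cells, and Cdc20, the activator of the anaphase-promoting complex, 169 and 142 against 60.3 and 29.5. Ube2c, the ubiquitin-conjugating enzyme of that complex, had 536 and 494 CPM in Lgr5 cells, 252 and 228 in Clu/Ly6a cells and 56.9 and 45.8 in fibroblasts.

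Chromosome and kinetochore genes made up much of the signal. Top2a, the topoisomerase that untangles sister DNA, had 1173 and 1005 CPM in Lgr5 cells, 411 and 373 in Clu/Ly6a cells and 465 and 322 in differentiated cells. Mki67, the coat protein of mitotic chromosomes behind the Ki-67 stain, had 798 and 698 CPM in Lgr5 cells, 304 and 284 in Clu/Ly6a cells and 295 and 261 in differentiated cells. Both were more than 2-fold below Lgr5 cells in the other gated epithelial classes of both libraries. The kinetochore proteins Cenpf and Cenpe had 419 and 313 CPM and 437 and 344 CPM in Lgr5 cells. In Clu/Ly6a cells Cenpe had 176 and 134 CPM, and Cenpf 131 and 198 CPM, of which a single Ptger4-OFF cell supplied 31 of 74 UMIs.

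Among the motors and furrow proteins, Kif20b, a kinesin of late cytokinesis, had 259 and 211 CPM in Lgr5 cells and 93.1 and 80.4 CPM in Clu/Ly6a cells. Racgap1, the partner of Kif23 in the centralspindlin complex, had 104 and 99.6 CPM against 55.0 and 53.6 CPM. Kif22, a kinesin that pushes chromosome arms toward the spindle equator, had 64.5 and 58.9 CPM against 23.95 and 24.1 CPM. Kif2c, a microtubule depolymerase at the kinetochore, was the scarcest of these, with 38.8 and 37.2 CPM against 15.97 and 10.7 CPM (18 and 4 UMIs in Clu/Ly6a cells). Each of the 4 was lower in Clu/Ly6a than in Lgr5 cells in both libraries.

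Counted gene by gene, 37 of 37 members were lower in Clu/Ly6a than in Lgr5 cells in both libraries (54.2% and 57.5% of measured genes), and 35 were lower by at least 1.5-fold in each, the fold used for all such counts here. Among all measured genes 18.8% and 31% were lower by that fold. The median log2 ratio of the members was −1.11 and −1.29, against −0.06 and −0.10 over all measured genes. Kif23 and Ect2, which act in cytokinesis, were the members within 1.5-fold in both libraries. Kif23 had 263 and 232 CPM in Lgr5 cells and 207 and 163 CPM in Clu/Ly6a cells, a ratio of 1.27 (1.09 to 1.49) and 1.42 (1.09 to 1.87). Ect2 had 84.6 and 65.1 CPM against 67.4 and 45.6 CPM, a ratio of 1.26 (0.955 to 1.66) and 1.43 (0.872 to 2.50). Single cells weighed on both in Clu/Ly6a cells, with 59 of 233 Kif23 UMIs in 1 Ptger4-ON cell. Without barcodes over 50000 UMIs, Ptger4-ON had 259 CPM of Kif23 in Lgr5 cells and 186 CPM in Clu/Ly6a cells.

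In differentiated cells all 37 members were lower than in Lgr5 cells by at least 1.5-fold in both libraries, where 22.2% and 30.3% of measured genes were. The median log2 ratio was −1.33 and −1.69 (all measured genes −0.14 and −0.22). The ratio of Lgr5 to differentiated cells ran from 1.56 (Kif20a, a cytokinesis kinesin) to 3.65 (Bub1b, the checkpoint protein BubR1) in Ptger4-ON and from 2.19 (Tacc3, a spindle protein) to 5.34 (Bub1) in Ptger4-OFF. In other epithelial cells, 36 and 34 members were lower than in Lgr5 cells (52.2% and 54.3% of measured genes), 6 and 1 of them by at least 1.5-fold (6.56% and 4.19% of measured genes). The Lgr5 class asks for 1 UMI of a sparse gene, a call that depends on depth. Its cells had a median of 11286.5 and 6006 UMIs against 3380 and 3233 in other epithelial cells. The cause of this gap in depth was not tested.

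**Figure D3:**
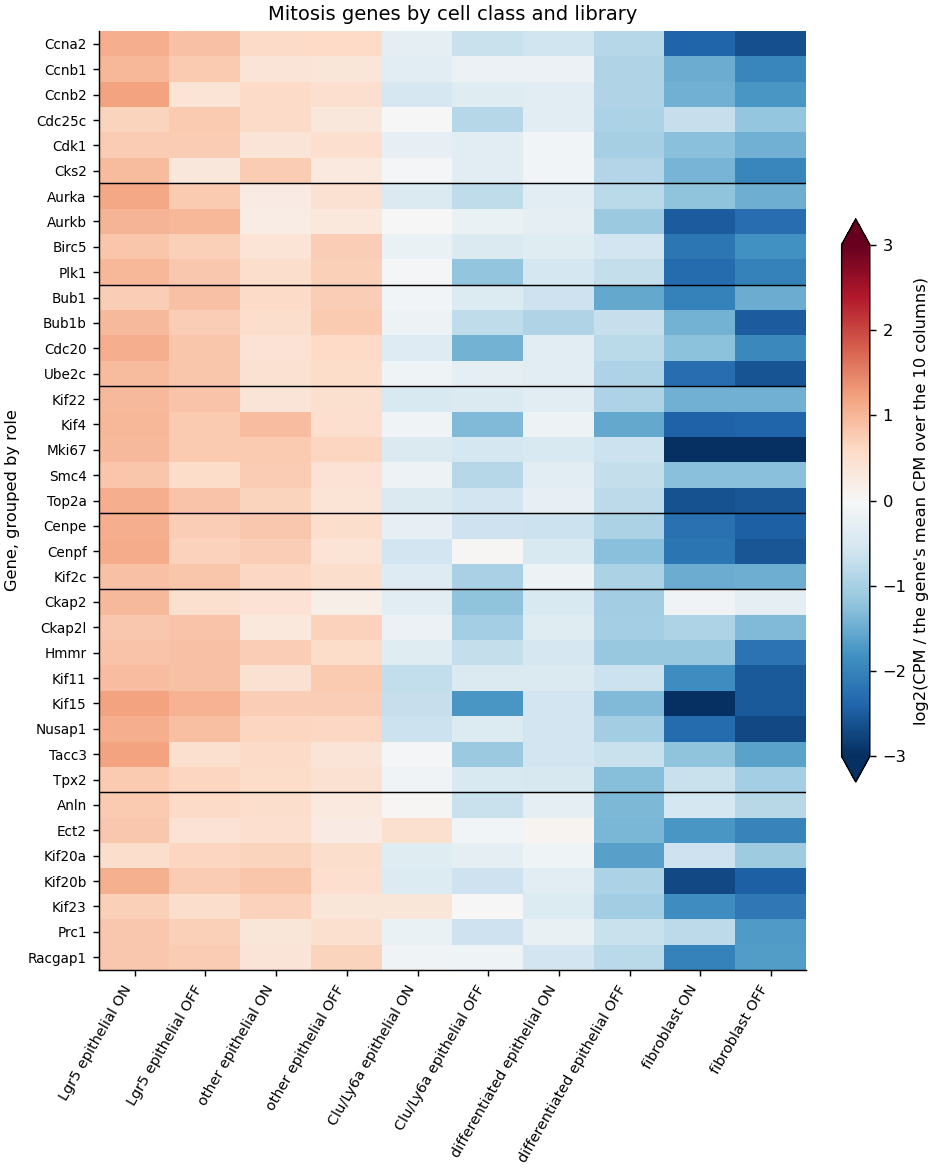
Each row is a mitosis gene, grouped by role, and each column a cell class of 1 library. Color is log2 of the CPM over the gene's mean over the 10 columns, without error bars, and ends at −3 and 3. Lgr5 columns are highest for most genes and fibroblast columns lowest, with Ckap2 the palest row in fibroblasts.

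The share of mitosis-high cells was lower at the upper end of the Clu and Ly6a levels. Among cells below the differentiated gate, those with no Clu or Ly6a UMI were mitosis-high in 74 of 151 (49.0%) and 349 of 769 cells (45.4%). From 5 to 10 Clu and Ly6a UMIs per 10000 the shares were 17 of 32 (53.1%) and 13 of 35 (37.1%), and from 10 to 20 they were 22 of 32 (68.8%) and 17 of 29 (58.6%). From 20 to 50 they were 15 of 51 (29.4%, 17.5% to 43.8%) and 6 of 19 (31.6%, 12.6% to 56.6%), and from 50 on 6 of 46 (13.04%, 4.94% to 26.3%) and 2 of 28 (7.14%, 0.877% to 23.5%). Both groups from 20 per 10000 on were thus below every lower group, in both libraries. A gate at 10 in place of 20 accordingly gave Clu/Ly6a cells 33.3% and 32.9% mitosis-high, and a gate at 50 gave 13.04% and 7.14%. Median depth was 3898 and 4102 UMIs in the cells with none and 5312 and 3666 in the highest group.

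Differentiated cells were not uniform. Cells whose larger marker group was absorptive (18 and 92 cells) had 296 CPM (222 to 386) and 817 CPM (751 to 887) of the mitosis genes, and 0 of 16 and 2 of 88 of them were mitosis-high. A count of 0 of 16 allows a share of up to 20.6% (exact interval). Goblet-marked cells (71 and 55), whose gate genes include the mucin Muc2 and the trefoil peptide Tff3, had 4417 CPM (4263 to 4575) and 4354 CPM (4159 to 4556), and 23 of 69 (33.3%) and 20 of 55 (36.4%) were mitosis-high. Paneth-marked cells (29 and 22), with lysozyme and defensin genes, had 3170 and 4752 CPM, with 5 of 26 and 6 of 21 mitosis-high. Cells with endocrine or tuft markers numbered 2 and 14.

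Within goblet-marked cells, the mitosis-high ones had less of the mature marker Tff3, with 8068 against 22719 CPM in Ptger4-ON and 6189 against 21454 CPM in Ptger4-OFF. Agr2, a secretory-pathway protein, was close in both (3514 against 3830, and 3123 against 3305 CPM). Muc2 was 311 against 523 CPM and 240 against 262 CPM, Fcgbp 723 against 1190 and 890 against 1469 CPM, and Spink4 5879 against 7799 and 3627 against 6206 CPM. Zg16, a granule protein, did not keep 1 direction, with 50.7 against 2579 CPM in Ptger4-ON and 711 against 652 CPM in Ptger4-OFF. Mitosis-high goblet-marked cells had a median of 6797 and 6255 UMIs against 4336 and 3686 in the rest, and the part of doublets or free mucin-cell RNA was not tested.

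**Figure D4:**
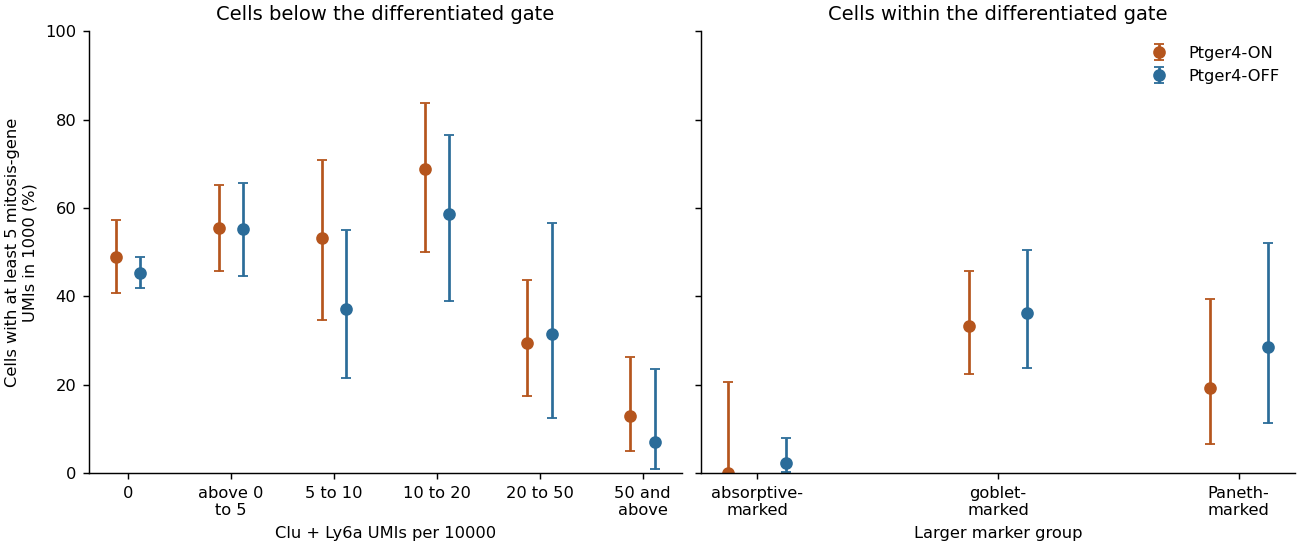
Share of cells (%) with at least 5 mitosis-gene UMIs in 1000, by Clu and Ly6a UMIs per 10000 in cells below the differentiated gate (left) and by larger marker group within the gate (right). Points are single libraries and bars exact 95% intervals. The share is 13.04% and 7.14% in the highest Clu and Ly6a group, and 0 of 16 and 2 of 88 in absorptive-marked cells.

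Between the conditions, the summed level over all epithelial cells was 6242 CPM in Ptger4-ON and 6037 CPM in Ptger4-OFF, a ratio OFF/ON of 0.967 (0.954 to 0.981). The shares of mitosis-high epithelial cells were 41.7% (222 of 533) and 40.9% (471 of 1152). Of the 37 genes, 21 were higher and 16 lower in Ptger4-OFF (45.8% and 54.2% of measured genes), and 0 passed 1.5-fold, where 7.43% of measured genes were higher and 10.7% lower by that fold. The median log2 ratio was 0.01, and −0.04 over all measured genes. The lowest ratios were those of Cks2 (0.747), Ect2 (0.757), Tacc3 (0.780) and Ccnb2 (0.798), and the highest that of Kif11, the motor that separates the spindle poles (1.20, 1.07 to 1.34). The ratio changed direction with the cells included. It was 1.01 without barcodes over 50000 UMIs and 1.24 in cells of 2000 to 10000 UMIs, where 34 of 37 genes were higher in Ptger4-OFF.

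In Lgr5 cells the summed level was lower in Ptger4-OFF (ratio 0.859, 0.842 to 0.875). Of the 37 genes, 31 were lower, where 51.8% of all measured genes were, and 3 were lower by at least 1.5-fold, where 6.82% were. The median log2 ratio was −0.19, against −0.02 over all measured genes. Depth moved with this result, since Lgr5 cells had a median of 11286.5 UMIs in Ptger4-ON and 6006 in Ptger4-OFF. Without barcodes over 50000 UMIs the ratio was 0.920 with 15 genes higher, and in cells of 2000 to 10000 UMIs it was 1.07 with 25 genes higher. The direction of the list as a whole thus differed between these sets of cells.

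The 3 genes past 1.5-fold in Lgr5 cells were Ccnb2, Tacc3 and Cks2. As a share of the 37 members they are close to the 6.82% of all measured genes lower by that fold. Ccnb2 had 599 UMIs (280 CPM) in Ptger4-ON and 544 UMIs (162 CPM) in Ptger4-OFF, a ratio of 0.577 (0.513 to 0.650). Tacc3, which with Aurka and chTOG stabilizes spindle fibers, had 161 and 97.2 CPM, a ratio of 0.605 (0.518 to 0.705). Cks2 had 52.4 and 34.8 CPM, a ratio of 0.664 (0.508 to 0.869). Without barcodes over 50000 UMIs these ratios were 0.649 (0.568 to 0.741), 0.670 (0.562 to 0.798) and 0.686 (0.510 to 0.925). Ccnb2 was found in 86 Ptger4-ON and 183 Ptger4-OFF Lgr5 cells, and no single cell held more than 7.18% of its UMIs. By contrast Hmmr, Cdk1 and Bub1 had ratios of 1.01, 1.01 and 1.10 in these cells.

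DNA replication genes had on balance the other direction in these cells. In Lgr5 cells 27 of 38 were higher in Ptger4-OFF, where 48.2% of measured genes were, with a median log2 ratio of 0.07. Pcna, the sliding clamp of DNA polymerase, had 385 and 431 CPM, and Dut, which clears dUTP, 259 and 275 CPM. Hells had 186 and 199 CPM. Lig1 was slightly lower in Ptger4-OFF, with 276 and 270 CPM (ratio 0.976, 0.879 to 1.08). The ratio of summed mitosis to summed replication UMIs in Lgr5 cells was 2.37 (2.31 to 2.43) in Ptger4-ON and 1.89 (1.85 to 1.93) in Ptger4-OFF. These cells had a median of 11286.5 and 6006 UMIs. The replication genes and this ratio were compared in the full Lgr5 class only, and their dependence on depth was not tested. Of 54 other mitosis genes in the tables, 47 were lower in Ptger4-OFF Lgr5 cells (51.8% of measured genes). By at least 1.5-fold 10 of them were lower (6.82% of measured genes). Their median log2 ratio was −0.29. Among those of highest level, Smc2 (condensin) had 411 and 329 CPM, Cenpa (the centromeric histone) 261 and 213, Incenp 235 and 219, and Cdca8 (borealin) 234 and 227.

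In Clu/Ly6a cells the summed ratio OFF/ON was 0.824 (0.772 to 0.880). Of the 37 genes 30 were lower in Ptger4-OFF and 7 higher (54.2% and 45.8% of measured genes), 11 lower and 1 higher by at least 1.5-fold (17.3% and 11.2% of measured genes). Few cells carried these values. A single cell held 24.99% and 29.3% of the class's mitosis-gene UMIs, and 5 cells held 53.9% and 78.1%. Smc4 had 456 and 279 CPM, a ratio of 0.611 (0.490 to 0.756), and Cenpf was the gene past the fold in the other direction, with 131 and 198 CPM. The summed ratio turned to 1.03 without barcodes over 50000 UMIs, to 1.08 with the gate at 10 per 10000 and to 1.08 in cells of 2000 to 10000 UMIs, and was 0.543 with the gate at 50.

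**Figure D5:**
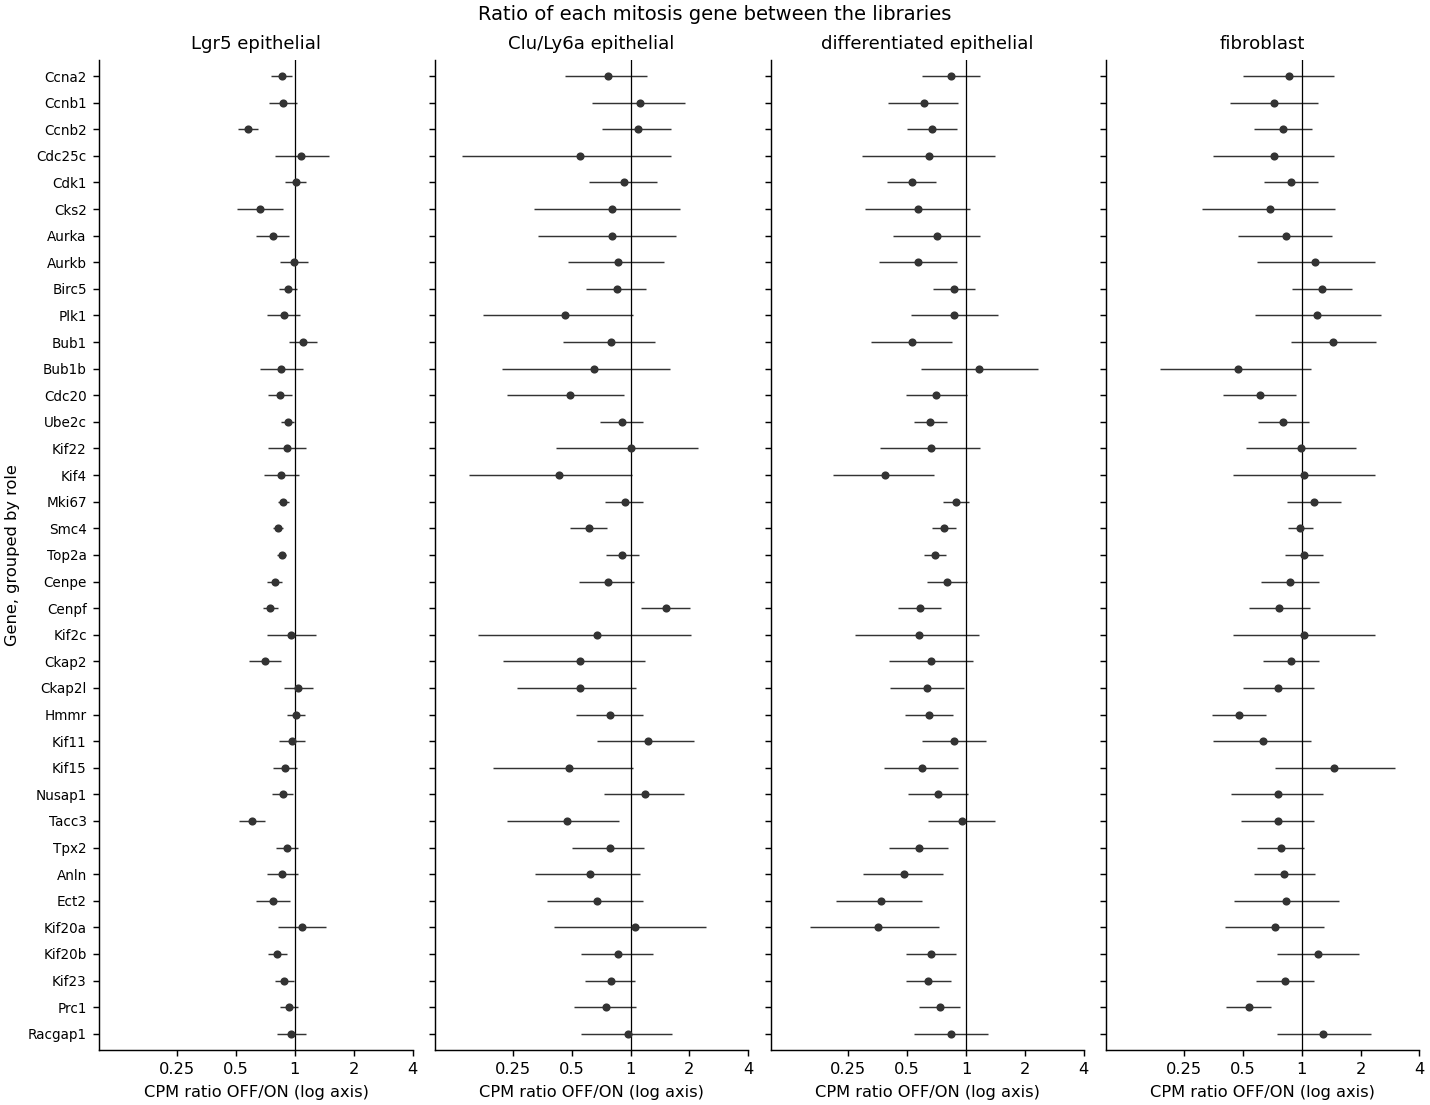
Ratio of CPM, Ptger4-OFF over Ptger4-ON (log axis), for each mitosis gene grouped by role in 4 classes. Points are ratios of 1 library to 1 library, bars exact 95% counting intervals and the vertical line a ratio of 1. In differentiated cells 36 of 37 genes lie below 1, and in Lgr5 cells 31, with Ccnb2 (0.577) and Tacc3 (0.605) farthest down.

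In differentiated cells the mitosis genes were lower in Ptger4-OFF, with a summed ratio of 0.702 (0.669 to 0.735). Of the 37 genes 36 were lower, 21 of them by at least 1.5-fold, where 59.3% of measured genes were lower and 17.9% by that fold. The median log2 ratio was −0.60, against −0.12. Kif20a had 28 and 11 UMIs (ratio 0.353, 0.158 to 0.731), Ect2 59 and 24 (0.365, 0.217 to 0.596), Kif4, a chromosome-bound kinesin, 42 and 18 (0.385, 0.208 to 0.683) and Anln (anillin, a furrow scaffold) 56 and 30 (0.481, 0.298 to 0.762). Mki67 had 295 and 261 CPM (0.884, 0.758 to 1.03). The summed ratio stayed under 1 in every alternative run, between 0.512 and 0.812. The kinds of cell in the class moved with it, since absorptive-marked cells, which had the lowest levels, were 18 of 120 in Ptger4-ON and 92 of 183 in Ptger4-OFF. None of the 4 kinds showed a drop of this size, and the part of the mix of kinds in the ratio was not tested. Goblet-marked cells had 4417 and 4354 CPM, and the level was higher in Ptger4-OFF in absorptive-marked cells (296 and 817 CPM), Paneth-marked cells (3170 and 4752 CPM) and the 2 and 14 cells with endocrine or tuft markers (1168 and 2483 CPM).

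In other epithelial cells 15 genes were higher and 22 lower in Ptger4-OFF (47.7% and 52.3% of measured genes), and 0 passed 1.5-fold (8.17% of measured genes higher and 11% lower by that fold). The summed ratio was 0.925 (0.901 to 0.951). It was 1.00 with the Clu/Ly6a gate at 10 or 50 per 10000 and 1.23 in cells of 2000 to 10000 UMIs. The ratio OFF/ON was highest for Ckap2l, a spindle protein (74.7 and 96.4 CPM, ratio 1.29, 1.00 to 1.67), followed by Kif11 (94.9 and 120 CPM, ratio 1.26, 1.01 to 1.59) and Birc5 (202 and 254 CPM, ratio 1.26, 1.08 to 1.47), and lowest for Cks2 (46.6 and 33.3 CPM, ratio 0.715).

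In fibroblasts all 37 members were below the pooled epithelial cells of the same library (59.5% and 58.2% of measured genes). Of these, 36 were lower by at least 1.5-fold in each, where 38.1% and 38% of measured genes were. The median log2 ratio was −2.01 and −2.33 (all measured genes −0.23 and −0.21). The size of the gap differed widely between genes. Mki67 was 13.3-fold (10.6 to 17.0) and 11.8-fold (9.55 to 14.6) higher in epithelial cells, with 575 and 583 CPM against 43.1 and 49.6. Kif15, a spindle kinesin, was 12.5-fold and 8.93-fold higher, and Top2a 8.92-fold and 8.22-fold. At the other end Ckap2, a microtubule-associated protein of the spindle, had 66.9 and 54.8 CPM in epithelial cells against 45.9 and 40.4 in fibroblasts, a ratio of 1.46 (1.14 to 1.88) and 1.36 (1.06 to 1.76). Kif20a had ratios of 1.88 and 2.67, Anln 1.94 and 2.09, and Tpx2, the activator of Aurka on the spindle, 2.07 and 2.57.

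The fibroblast signal came from few cells. The 15 and 18 mitosis-high fibroblasts held 76.6% and 55.1% of the class's mitosis-gene UMIs, and 5 cells held 57.5% and 36.3%. In the remaining fibroblasts the 37 genes summed to 348 and 549 CPM, against 1970 and 1678 CPM in the epithelial cells that were not mitosis-high. Among the 6 and 11 members with at least 10 thinned UMIs in fibroblasts, Smc4 had the lowest share in fibroblasts high in the other members, with 23.4% (12.3% to 38.0%) and 19.7% (10.9% to 31.3%) of its thinned UMIs. It was found in 122 of 274 and 161 of 359 fibroblasts, while Mki67 was found in 22 and 36.

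Each gene's share of the mitosis-gene UMIs was also compared between mitosis-high epithelial cells and mitosis-high fibroblasts. It was higher in fibroblasts in both libraries for 17 of the 37 genes, lower in both for 11, and on different sides in the libraries for 9, Hmmr among them (6.26% in fibroblasts against 3.44% in Ptger4-ON, 3.61% against 3.80% in Ptger4-OFF). Mki67 was 9.27% and 9.38% of the mitosis-gene UMIs of mitosis-high epithelial cells and 3.30% and 3.26% of those of mitosis-high fibroblasts. Top2a was 13.1% and 12.8% against 6.54% and 7.21%. Tpx2 was higher in fibroblasts, with 5.76% and 5.24% against 2.34% and 2.40%, as were Ckap2 with 3.52% and 3.43% against 0.985% and 0.895%, Prc1 with 8.11% and 5.41% against 3.44% and 3.75%, and Anln with 2.96% and 3.004% against 1.32% and 1.17%. Smc4 was close, with 8.55% and 9.10% against 10.4% and 9.67%. These genes were picked after their values were seen, and the fibroblast shares rest on 15 and 18 cells. Shares of a common total are tied, so lower shares of Mki67 and Top2a raise those of other genes.

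Fibroblasts of the conditions differed by a summed ratio OFF/ON of 0.860 (0.810 to 0.912), with 26 genes lower and 11 higher (48.1% and 51.9% of measured genes), 5 lower and 0 higher by at least 1.5-fold (7.77% and 6.69% of measured genes). Hmmr, a spindle-pole protein and hyaluronan receptor, had 121 and 61 UMIs (ratio 0.479, 0.346 to 0.656), and Prc1 161 and 91 (0.537, 0.410 to 0.698). Cdc20 had 59 and 38 (0.612, 0.396 to 0.935), Kif11 33 and 22 (0.633, 0.352 to 1.12) and Bub1b 18 and 9 (0.475, 0.188 to 1.11). The direction turned with the weight given to cells. With equal weight for each cell the summed ratio was 1.05, and in fibroblasts of 2000 to 10000 UMIs it was 1.55. The shares of mitosis-high fibroblasts were 5.95% (3.37% to 9.63%) and 5.17% (3.09% to 8.05%).

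Brakes of the cell cycle were read beside the mitosis genes. Of 22 such genes in the tables, 8 of the 19 measured were higher in Clu/Ly6a than in Lgr5 cells in Ptger4-ON and 10 of 19 in Ptger4-OFF (45.8% and 42.5% of measured genes), so that the list had no common direction. Cdkn1a (p21, an inhibitor of cyclin-dependent kinases) had 398 and 465 CPM in Lgr5 cells, 959 and 1123 in Clu/Ly6a cells, 921 and 1265 in differentiated cells and 1552 and 1673 in fibroblasts, an order opposite to that of the mitosis genes except between Clu/Ly6a and differentiated cells in Ptger4-ON. Cdkn1b (p27) had 93.5 and 92.2 CPM in Lgr5 cells and 69.2 and 59.0 in Clu/Ly6a cells. Ccng1, a p53 target, had 156 and 125 CPM in Lgr5 cells, 329 and 257 in Clu/Ly6a cells and 392 and 432 in fibroblasts, and Btg2, an antiproliferative factor, 60.8 and 81.8, 92.2 and 123, and 208 and 188.

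Replication genes were also lower in Clu/Ly6a than in Lgr5 cells, 38 of 38 in both libraries (54.2% and 57.5% of measured genes), 16 in Ptger4-ON and 37 in Ptger4-OFF by at least 1.5-fold (18.8% and 31% of measured genes), with a median log2 ratio of −0.53 and −1.27. In other epithelial cells the direction of the list differed between the libraries. Lower than in Lgr5 cells were 17 of 38 in Ptger4-ON and 28 of 38 in Ptger4-OFF (52.2% and 54.3% of measured genes). The median log2 ratio was 0.04 and −0.08, against −0.01 and −0.02 over all measured genes. The ratio of mitosis to replication UMIs was 1.54 (1.47 to 1.61) and 1.95 (1.77 to 2.16) in Clu/Ly6a cells, and 1.40 (1.32 to 1.496) and 1.07 (1.00 to 1.14) in fibroblasts. Called at the same 5 UMIs in 1000, cells high in both lists were 19.7% and 17.99% of Lgr5 cells, and cells high in mitosis genes alone 41.7% and 35.7%. In Clu/Ly6a cells the values were 12.4% and 8.51% for both and 9.28% and 8.51% for mitosis genes alone, and 73.2% and 80.9% were high in neither. Cells high in replication genes alone were 14.2% and 15.1% of Lgr5 cells and 5.16% and 2.13% of Clu/Ly6a cells. The same 5 UMIs are not an equal bar for the lists. Lgr5 cells had 8714 and 7481 CPM of mitosis genes but 3682 and 3967 CPM of replication genes. The shares are thus not fractions of cell-cycle phases.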

How the data were processed

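Polyadenylated RNA was measured by Drop-seq in 2 libraries, 1 per condition. The authors deposited raw counts, whole numbers by gene and barcode. The labels name the Drop-seq protocol, and on that ground the counts are taken as UMIs. Per the submitters' processing notes, STAR 2.6 and mm10 were used. The sources used here do not give the counting tool, annotation or barcode selection. As deposited, 96 and 152 barcodes end in N.

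Barcodes under 300 genes or over 20% mitochondrial UMIs were dropped (882 and 1564 remained), and Scrublet in scanpy 1.11.5 removed 7 and 5 doublets. Differentiated cells had at least 100 UMIs per 10000, and at least 3 UMIs, of 35 lineage markers. Clu/Ly6a cells had at least 20 per 10000 and at least 2 UMIs. Some cells met several gates (19 and 7 both Clu/Ly6a and Lgr5, 27 and 41 both differentiated and Lgr5) and went to the earlier class. Marker ties left 15 and 1 cells in no class. UMIs were summed per class and divided by the class total. Genes needed 20 UMIs over both groups compared, and log2 ratios used a pseudocount of 0.5. Ratios have exact conditional binomial, CPM exact Poisson and shares exact Clopper-Pearson 95% intervals (scipy 1.17.1). No p-values were made. Promoters are the first listed RefSeq window per symbol.

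Scaling alternatives used edgeR 4.0.16 (TMM) and median-of-ratios factors as DESeq2 computes them. All members are named, and of the lists of other mitosis genes, replication genes and brakes the 4 genes of highest epithelial level. The members and lists were chosen with earlier results of these data known. Depth windows, barcode pairs, mixed barcodes, kinds of differentiated cells, Clu/Ly6a bins and make-up of mitosis-high cells were added after the data were seen.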

Additional observations from a re-analysis of the deposited data

How the results depend on the processing

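No paired analysis was possible because each condition has 1 library and the labels give no replicate numbers. Leaving out a library was not possible for the same reason. Every ratio of Clu/Ly6a, differentiated, other epithelial or fibroblast cells to Lgr5 cells stayed under 1 in every alternative run, from 0.0846 to 0.897. Of 120 such values, 42 moved beyond the counting interval of the reported ratio. Of 102 alternative values of the ratio OFF/ON, 12 reversed, 20 moved and 70 did neither. The differentiated class was the one whose ratio OFF/ON did not reverse in any of them. The cause of each change was not tested.

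The ratio OFF/ON of the summed level, where it moved or reversed, was as follows. Without barcodes over 50000 UMIs, it was 1.01 in all epithelial cells, 0.920 in Lgr5 cells and 1.03 in Clu/Ly6a cells. With TMM factors, it was 0.991 in all epithelial cells and 0.758 in differentiated cells. With median-of-ratios factors, it was 1 in all epithelial cells, 0.877 in Lgr5 cells, 0.782 in differentiated cells and 0.968 in other epithelial cells. In cells of 2000 to 10000 UMIs, it was 1.24 in all epithelial cells, 1.07 in Lgr5 cells, 1.08 in Clu/Ly6a cells, 0.625 in differentiated cells, 1.23 in other epithelial cells and 1.55 in fibroblasts. With the Clu/Ly6a gate at 10 per 10000, it was 0.827 in Lgr5 cells, 1.08 in Clu/Ly6a cells and 1 in other epithelial cells. With the Clu/Ly6a gate at 50 per 10000, it was 0.909 in Lgr5 cells, 0.543 in Clu/Ly6a cells and 1.001 in other epithelial cells. With gates on cells thinned to 1000 UMIs, it was 0.724 in Lgr5 cells, 0.9003 in Clu/Ly6a cells, 0.643 in differentiated cells and 0.896 in other epithelial cells. With equal weight for each cell, it was 0.814 in Lgr5 cells, 0.914 in Clu/Ly6a cells, 0.582 in differentiated cells and 1.05 in fibroblasts. With the differentiated gate at 50 per 10000, it was 0.812 in differentiated cells. With the differentiated gate at 200 per 10000, it was 0.512 in differentiated cells and 0.885 in other epithelial cells.

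The number of members with a higher level in Ptger4-OFF also moved. Without barcodes over 50000 UMIs, it was 15 in Lgr5 cells, 19 in Clu/Ly6a cells and 2 in differentiated cells. With TMM factors, it was 2 in differentiated cells. With median-of-ratios factors, it was 2 in differentiated cells. In cells of 2000 to 10000 UMIs, it was 34 in all epithelial cells, 25 in Lgr5 cells, 2 in differentiated cells, 34 in other epithelial cells and 21 in fibroblasts. At a Clu/Ly6a gate of 10 per 10000, it was 1 in Lgr5 cells and 21 in Clu/Ly6a cells. At a Clu/Ly6a gate of 50 per 10000, it was 1 in Clu/Ly6a cells. With gates on cells thinned to 1000 UMIs, it was 2 in Lgr5 cells, 11 in Clu/Ly6a cells, 0 in differentiated cells and 8 in other epithelial cells. With equal weight for each cell, it was 13 in Clu/Ly6a cells, 2 in differentiated cells and 23 in fibroblasts. At a differentiated gate of 50 per 10000, it was 5 in differentiated cells. At a differentiated gate of 200 per 10000, it was 0 in differentiated cells. With a minimum of 50 UMIs per gene, it was 0 in differentiated cells and 6 in fibroblasts.

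The share of mitosis-high cells moved in the library given in parentheses. In cells of 2000 to 10000 UMIs, all epithelial cells had 33.7% (ON), Lgr5 cells had 46% (ON), other epithelial cells had 39.3% (ON) and fibroblasts had 3.21% (ON). With mitosis-high cells defined at 3 UMIs, all epithelial cells had 51.4% (ON) and 51% (OFF), Lgr5 cells had 70.9% (ON) and 63.2% (OFF), other epithelial cells had 60.7% (ON) and 53.5% (OFF) and fibroblasts had 9.77% (OFF). With mitosis-high cells defined at 10 UMIs, all epithelial cells had 22.5% (ON) and 22.7% (OFF), Lgr5 cells had 36.2% (ON) and 30.9% (OFF), Clu/Ly6a cells had 13.4% (ON), differentiated cells had 9.73% (ON) and 5.62% (OFF), other epithelial cells had 25.5% (ON) and 23.5% (OFF) and fibroblasts had 3.17% (ON) and 2.3% (OFF). With the Clu/Ly6a gate at 10 per 10000, Clu/Ly6a cells had 33.3% (ON) and 32.9% (OFF). With the Clu/Ly6a gate at 50 per 10000, Clu/Ly6a cells had 13% (ON) and 7.14% (OFF). With at least 2 Lgr5 UMIs, Lgr5 cells had 70.8% (ON) and 63.8% (OFF). With the differentiated gate at 200 per 10000, differentiated cells had 12% (OFF).

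The level relative to Lgr5 cells moved in the library given in parentheses. Without barcodes over 50000 UMIs, Clu/Ly6a cells had 0.358 (ON) and other epithelial cells had 0.824 (ON) and 0.829 (OFF). In cells of 2000 to 10000 UMIs, Clu/Ly6a cells had 0.442 (OFF), differentiated cells had 0.590 (ON) and 0.345 (OFF), other epithelial cells had 0.897 (OFF) and fibroblasts had 0.0846 (ON) and 0.123 (OFF). At a Clu/Ly6a gate of 10 per 10000, Clu/Ly6a cells had 0.539 (ON) and 0.702 (OFF) and other epithelial cells had 0.727 (ON) and 0.879 (OFF). At a Clu/Ly6a gate of 50 per 10000, Clu/Ly6a cells had 0.381 (ON) and 0.228 (OFF), differentiated cells had 0.419 (ON), other epithelial cells had 0.764 (ON) and fibroblasts had 0.163 (ON). With gates on cells thinned to 1000 UMIs, Clu/Ly6a cells had 0.548 (OFF), differentiated cells had 0.315 (ON) and 0.280 (OFF), other epithelial cells had 0.698 (ON) and fibroblasts had 0.123 (ON) and 0.147 (OFF). With equal weight for each cell, Clu/Ly6a cells had 0.357 (ON), differentiated cells had 0.419 (ON) and 0.2997 (OFF), other epithelial cells had 0.727 (ON) and 0.831 (OFF) and fibroblasts had 0.114 (ON) and 0.146 (OFF). With at least 2 Lgr5 UMIs, Clu/Ly6a cells had 0.412 (ON), differentiated cells had 0.380 (ON) and 0.306 (OFF), other epithelial cells had 0.817 (OFF) and fibroblasts had 0.145 (OFF). At a differentiated gate of 50 per 10000, differentiated cells had 0.381 (ON) and 0.357 (OFF). At a differentiated gate of 200 per 10000, differentiated cells had 0.360 (ON) and 0.216 (OFF) and other epithelial cells had 0.833 (OFF). With doublets kept, fibroblasts had 0.166 (ON).

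Depth limits the Clu/Ly6a cells of Ptger4-OFF, where 25 or fewer UMIs stand behind 22 of 37 members, and the fibroblasts, where 15 and 18 cells carry most of the signal. The Lgr5 gate asks for a set number of UMIs. With gates on cells thinned to 1000 UMIs, other epithelial cells stayed below Lgr5 cells, at 0.698 (ON) and 0.863 (OFF) of their level. Intervals cover counting error only.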
